A study of Mus musculus with 30 samples.

Results

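Glands carrying the Her2/Neu oncogene and lacking the interferon receptor chain IFNAR1 were compared with wild-type glands, gene by gene. The comparison used every array labelled Her2/Neu+/IFNAR1-/- (9 arrays) and every array labelled WT (7 arrays), which are 16 of the 30 arrays of the study. The other arrays, 8 labelled IFNAR1-/- and 6 labelled Her2/Neu+, served to estimate the spread and are given beside the results. All groups were 129sv mice aged 19 weeks, and the tissue was the inguinal mammary gland. Total gland RNA, labelled with Cy5, was hybridised on 2-colour Agilent arrays against universal mouse reference RNA carrying Cy3. Each value is the log2 ratio of gland to reference, so a measured 0 means the level of the reference and not the absence of the transcript. WT mice carry neither change, IFNAR1-/- mice lack the receptor chain, Her2/Neu+ mice carry the oncogene, and Her2/Neu+/IFNAR1-/- mice have both. The labels used here do not name the promoter that drives the oncogene, the species of its sequence or the sex of the mice.

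Type I interferons bind a receptor made of IFNAR1 and IFNAR2, and the Janus kinases at its tails start a signal that switches on antiviral genes. Her2/Neu, the product of Erbb2, is a receptor tyrosine kinase without a known ligand of its own; it pairs with other ERBB receptors and signals through RAS and ERK and through PI3 kinase. The mammary gland at rest is mostly fat with a sparse epithelial tree, and prolactin, acting through STAT5, turns that epithelium towards milk production. Because whole glands were measured, a lower value cannot distinguish fewer cells of a type from less RNA per cell.

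Each WT array gave between 19213 and 20676 probe values and each Her2/Neu+/IFNAR1-/- array between 17485 and 20430. WT arrays resembled one another more, with a median Pearson correlation over genes of 0.784 between pairs, than the Her2/Neu+/IFNAR1-/- arrays did, with a median of 0.640; pairs across the groups had a median of 0.671. Some values on an array are identical to the last digit; WT arrays held 6403 ± 1353 of these repeated values (SD, n = 7) and Her2/Neu+/IFNAR1-/- arrays 8054 ± 1500 (n = 9). How they were made is not given in the sources used here. Some of them lie near 0 and are shared by different genes: Lalba and Bglap2 both read -0.026 on WT 54. A repeated value near 0 therefore may not be a measured ratio. Of the gene values, averaged over probes, 34.9% in WT and 47.3% in Her2/Neu+/IFNAR1-/- glands drew on at least 1 repeated probe value. The percentages given for lists below are counted the same way. The part of repeated values in the results was not tested beyond a fit without them.

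Neither altered gene separated the groups on these arrays. Ifnar1, read by 2 probes, ran from -0.47 over a median of 0.06 to 2.32 in WT and from -0.04 over 0.65 to 3.20 in the 8 Her2/Neu+/IFNAR1-/- arrays with a value, a difference of 0.62 ± 0.56 (SE; adjusted p = 0.737). The values overlapped, and on 6 arrays of each group at least 1 Ifnar1 probe carried a repeated value. Erbb2, read by 10 probes, ran from -0.37 over -0.00 to 0.63 in WT and from -0.10 over 0.30 to 1.31 in Her2/Neu+/IFNAR1-/- glands (difference 0.19 ± 0.25, adjusted p = 0.847). Its probes disagreed, with differences from -0.88 to 1.32. Where these probes lie relative to the deleted part of Ifnar1 or to the oncogene's own sequence is not given in the sources used here, so they do not check the labels. Ifnar2, the partner chain, differed by -0.22 ± 0.32 (adjusted p = 0.867).

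Of 11463 genes tested, 20 (0.174%) passed a Benjamini-Hochberg adjusted p under 0.05 in limma: 12 were higher (0.105%) and 8 lower (0.0698%) in Her2/Neu+/IFNAR1-/- than in WT glands. The genes that rose include a milk protein (Lalba), feedback inhibitors of cytokine receptors (Cish, Socs2), an early response gene and a receptor kinase (Ier3, Epha2), a carbonic anhydrase (Car12) and secretory pathway genes (Sdf2l1, Lman1). Those that fell include 4 with mitochondrial names or roles (Cox7a1, Hscb, Mrpl34, Mrps36-ps2) and the detoxifying enzyme Glo1. With quantile normalization between arrays the split was 13 higher and 19 lower instead. At an unadjusted p under 0.05, 1274 genes passed (11.1%), 752 of them higher (6.56%) and 522 lower (4.55%), and the median difference over all genes was 0.08. Whatever their p, 6824 of the 11463 genes were higher and 4639 lower. All Her2/Neu+/IFNAR1-/- arrays with a value lay above all WT arrays in 13 genes (0.113%) and below them in 12 (0.105%). Most of these genes were not called, and some carried repeated values on every Her2/Neu+/IFNAR1-/- array with a value. With WT 56 left out 9 genes passed, and with Her2/Neu+/IFNAR1-/- 103 left out 40 did.

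**Figure D1:**
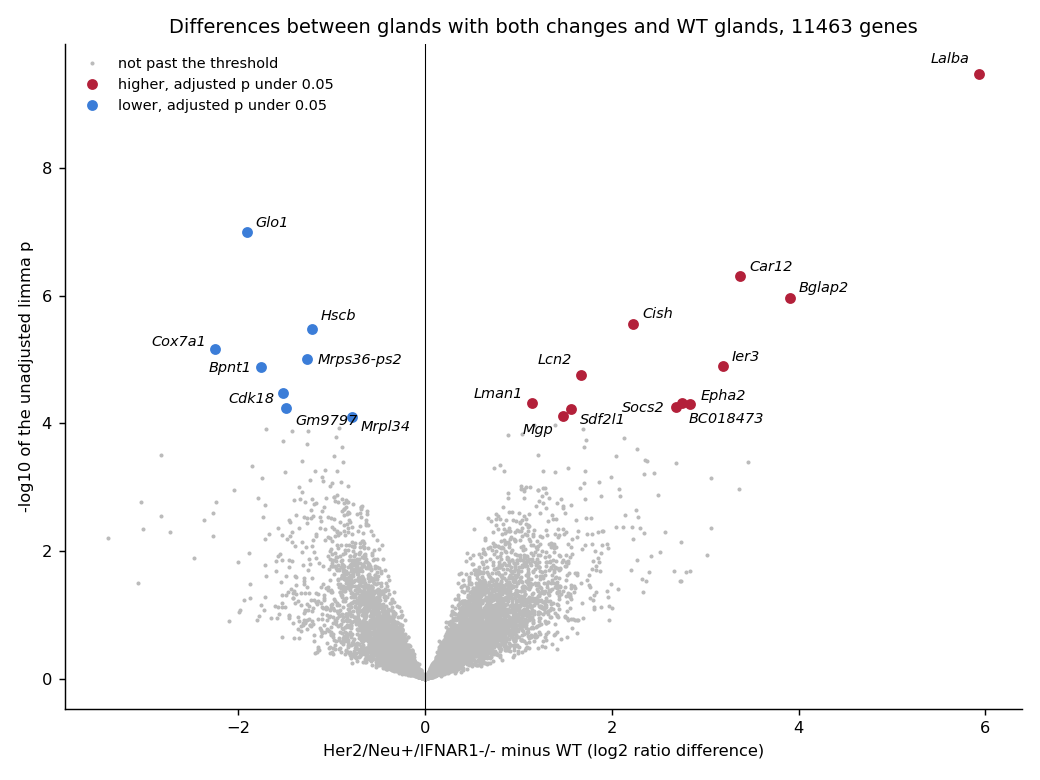
Difference between Her2/Neu+/IFNAR1-/- and WT glands (horizontal axis, log2 ratio) against -log10 of the unadjusted limma p (vertical axis) for 11463 genes. The 12 called genes that were higher (red) and the 8 that were lower (blue) are named, and Lalba stands farthest to the right at 5.93.

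Lalba encodes alpha-lactalbumin, the milk whey protein that joins a galactosyltransferase to make lactose. On the 4 WT arrays with a value it ran from -0.03 over a median of 0.03 to 0.24, all of them repeated values, while the 7 Her2/Neu+/IFNAR1-/- arrays with a value all stood at 6, the upper limit of the scale, which is 64-fold above the reference. No array of one group reached the other. The fitted difference of 5.93 ± 0.52 (adjusted p = 3.91e-06) therefore lies between repeated values near 0 and a limit, and is not a measured size. These WT values may not be measured ratios. Lalba averaged 1.36 over 4 IFNAR1-/- arrays (SD 2.06) and 5.93 over 6 Her2/Neu+ arrays (SD 0.17).

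Of 16 milk and secretory genes listed, 8 were measured and Lalba alone passed. Csn3, kappa-casein, stood at 6 on all 9 Her2/Neu+/IFNAR1-/- arrays and ran from 4.47 over 5.75 to 6 in WT, so the limit of the scale hides any difference above it (adjusted p = 0.348). Stat5a, the transcription factor that relays prolactin, ran from 1.96 over 2.65 to 3.08 in WT and from 2.37 over 3.56 to 4.90 in Her2/Neu+/IFNAR1-/- glands (1.01 ± 0.33, adjusted p = 0.225). The array means of the list ran from 2.20 to 3.74 in WT and from 2.85 to 4.40 in Her2/Neu+/IFNAR1-/- glands, with 7 of the 9 above every WT array. Xdh differed by 0.60 and Btn1a1, butyrophilin of the milk fat globule, by 0.27, and neither passed.

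Cish and Socs2 belong to the SOCS family, whose members are transcribed in response to STAT proteins and shut the cytokine receptor off again; both are textbook STAT5 targets. Cish ran from -0.02 over 0.73 to 1.93 on 6 WT arrays and from 1.92 over 3.27 to 3.78 on 8 Her2/Neu+/IFNAR1-/- arrays. All but the lowest Her2/Neu+/IFNAR1-/- array lay above every WT array, and Cish rose by 2.23 ± 0.38, or 4.69-fold (adjusted p = 0.00638). Socs2, averaged over 12 probes, ran from -0.03 over 0.82 to 1.57 in WT and from -0.01 over 3.73 to 5.47 in Her2/Neu+/IFNAR1-/- glands, and rose by 2.68 ± 0.57 (adjusted p = 0.0383). In 8 of 9 Her2/Neu+/IFNAR1-/- arrays Socs2 exceeded every WT array, and the ninth sat among the lowest WT values. All 12 probes were higher, by 1.24 to 4.00, and 3 Her2/Neu+/IFNAR1-/- arrays had a Socs2 probe at the limit of the scale. The call for Socs2 was lost in 12 of the 16 fits that left out 1 array, with adjusted p up to 0.0921, with quantile normalization and when only the compared groups were fitted; leaving out 1 array, it was kept without Her2/Neu+/IFNAR1-/- 102, 103, 104 or 106.

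Of the 8 SOCS genes, a family chosen after its values had been seen, 7 were measured, and Cish and Socs2 were the 2 that passed. Socs1, the classic brake on interferon receptors, differed by 0.53 ± 0.51 and Socs3, the brake on interleukin-6 type receptors, by -0.30 ± 0.32, with adjusted p of 0.759 and 0.796.

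The 250 bases before the transcription start were searched in the 12 called genes that have an entry in the RefSeq promoter table (GRCm38.p6), for 4 motifs on both strands. They are shown for Cish and Lalba because prolactin and STAT5 act on both genes, and for Sdf2l1 because it holds the most matches; capitals mark CCAAT boxes, read on either strand. The windows are chr9:107296409-107296658 on the plus strand for Cish, chr16:17132384-17132633 on the minus strand for Sdf2l1 and chr15:98482684-98482933 on the minus strand for Lalba.
Cish: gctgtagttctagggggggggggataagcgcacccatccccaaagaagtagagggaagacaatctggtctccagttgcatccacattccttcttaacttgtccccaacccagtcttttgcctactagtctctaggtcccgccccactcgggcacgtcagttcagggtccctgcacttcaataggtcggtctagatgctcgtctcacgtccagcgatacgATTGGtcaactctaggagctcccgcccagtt
Sdf2l1: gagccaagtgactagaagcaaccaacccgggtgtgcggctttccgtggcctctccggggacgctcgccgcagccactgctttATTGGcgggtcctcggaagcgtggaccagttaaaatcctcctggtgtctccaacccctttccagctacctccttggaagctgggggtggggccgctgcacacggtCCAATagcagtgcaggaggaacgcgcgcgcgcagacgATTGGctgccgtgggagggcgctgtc
Lalba: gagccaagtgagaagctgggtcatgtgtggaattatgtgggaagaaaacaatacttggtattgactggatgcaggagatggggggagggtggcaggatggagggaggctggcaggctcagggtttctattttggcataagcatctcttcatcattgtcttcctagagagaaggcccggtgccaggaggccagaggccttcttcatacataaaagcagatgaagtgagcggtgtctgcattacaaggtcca
Sdf2l1 carries 3 CCAAT boxes, at 168, 63 and 26 bases before the start, Cish carries 1 at 31, and Lalba carries none. CCAAT was found in 6 of the 12 windows (50%), against 35.1% of the 11282 windows of genes tested. The STAT element TTCNNNGAA was in 0 of 12 (6.04% of genes tested), the interferon element, a pair of GAAA with 2 bases between, in 0 of 12 (2.62%) and TATAAA in 0 of 12 (6.62%). These letters say nothing of sites outside the windows.

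Ier3 and Epha2 are both switched on downstream of RAS and ERK. Ier3, an early response gene that acts on cell survival, ran from -5.11 over -3.93 to -2.44 in WT and from -2.92 over -1.35 to 1.56 in Her2/Neu+/IFNAR1-/- glands. It rose by 3.19 ± 0.61, or 9.12-fold (adjusted p = 0.0151), and 7 of 9 Her2/Neu+/IFNAR1-/- arrays exceeded every WT array; the call was lost when only the compared groups were fitted. Epha2, a receptor tyrosine kinase for ephrin-A ligands, ran from -3.74 over -2.89 to -1.49 in WT and from -3.16 over 0.53 to 2.23 in Her2/Neu+/IFNAR1-/- glands. Again 7 of 9 arrays lay above all WT arrays, and Epha2 rose by 2.84 ± 0.60, or 7.14-fold (adjusted p = 0.0382). Epha2 was the single call among 11 measured Eph receptors and ephrins, a family chosen after its values had been seen, and was lost in 11 of the 16 fits without 1 array, with adjusted p up to 0.1, and when only the compared groups were fitted; leaving out 1 array, it was kept without WT 60 or Her2/Neu+/IFNAR1-/- 102, 103, 104 or 106.

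Of 26 genes listed as ERBB receptors, their ligands and ERK targets, 18 were measured. Ier3 passed, 10 were higher at an unadjusted p under 0.05 (background 6.56% of genes) and 1 was lower, and the list's median was 0.89 against 0.08 over all genes. Etv5, an ETS factor induced by ERK, ran from -2.97 over -0.32 to 0.05 in WT and from -1.02 over 1.05 to 2.96 in Her2/Neu+/IFNAR1-/- glands (2.08 ± 0.57, adjusted p = 0.148). Dusp6, the phosphatase that turns ERK off, differed by 1.02 ± 0.32 (adjusted p = 0.207), and the ligands Hbegf and Nrg1 by 1.95 and 1.34 (adjusted p = 0.267 and 0.322). Spry1, an ERK feedback inhibitor, and Egr1, an ERK-induced factor, were the 2 lower members, at -1.09 and -0.98. The receptors themselves moved little, with 0.19 for Erbb2 and 0.10 for Egfr. Array means of the list ran from -1.50 to -1.0 in WT and from -1.06 to 0.45 in Her2/Neu+/IFNAR1-/- glands, 8 of 9 above every WT array. With the inferred slide as a fixed block, which leaves WT 53, 54 and 57 against Her2/Neu+/IFNAR1-/- 102, the median was 0.03 and 0 members passed at an unadjusted p under 0.05 in either direction. Repeated values entered 35.2% of the list's gene values in WT and 49.1% in Her2/Neu+/IFNAR1-/- glands.

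Genes of the secretory pathway were also among those that rose. Sdf2l1, a partner of the endoplasmic reticulum (ER) chaperone machinery, ran from -3.17 over -2.05 to -1.03 in WT and from -2.12 over -0.36 to 0.00 in Her2/Neu+/IFNAR1-/- glands. It rose by 1.56 ± 0.33, or 2.96-fold (adjusted p = 0.0383), with 6 of 9 arrays above every WT array; 5 of the 9 carried repeated values. Lman1, the lectin that carries glycoproteins from the ER to the Golgi, ran from -2.16 over -2.0 to -1.49 in WT and from -2.11 over -0.87 to 0.19 in Her2/Neu+/IFNAR1-/- glands. It rose by 1.14 ± 0.24, or 2.21-fold (adjusted p = 0.0382), and 8 of 9 arrays lay above all WT arrays. Both calls were lost when only the compared groups were fitted and with the array block number, the array's position given in the labels, as a covariate. Leaving out 1 array ended the Sdf2l1 call in 10 of 16 fits (all but those without WT 55 or 60 or Her2/Neu+/IFNAR1-/- 102, 103, 104 or 106; adjusted p up to 0.127) and the Lman1 call in 9 (WT 53, 54, 56, 57, 59 and 60 and Her2/Neu+/IFNAR1-/- 105, 108 and 110; up to 0.1).

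Of 19 measured ER folding and unfolded protein response genes, 18 were higher, with a median of 0.38, beside 6824 of 11463 over all genes. At an unadjusted p under 0.05, 4 were higher (background 6.56%). Sdf2l1 passed over all genes, and the others were Xbp1, the factor that expands the ER (0.76 ± 0.24, adjusted p = 0.213), the disulphide isomerase Pdia3 (1.12 ± 0.44, adjusted p = 0.326) and the chaperone Hsp90b1 (0.41 ± 0.18, adjusted p = 0.393). Hspa5, the master ER chaperone, differed by 0.10 ± 0.39. On every one of the 9 Her2/Neu+/IFNAR1-/- arrays the list's mean, from -0.51 to 0.34, was above every WT array, from -0.86 to -0.61. The median was 0.51 within inferred array set 1 and 0.32 within set 2. Of the list's gene values, 9.77% in WT and 21.8% in Her2/Neu+/IFNAR1-/- glands drew on repeated values. The array means were not computed without these, and their part in the separation was not tested.

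Car12 and Bglap2 separated the groups fully. Car12 is a carbonic anhydrase anchored in the outer face of epithelial cell membranes. It ran from -2.90 over -2.17 to -1.07 in WT, with repeated values on 5 of 7 arrays, and from -0.07 over 1.00 to 2.99 in Her2/Neu+/IFNAR1-/- glands. It rose by 3.37 ± 0.53, or 10.4-fold (adjusted p = 0.00192). Of the 9 carbonic anhydrases measured, a family chosen after its values had been seen, Car6 differed by 2.45 (adjusted p = 0.116) and Car9 by 1.77 (adjusted p = 0.199), while Car3, abundant in fat, differed by -0.06.

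Bglap2 encodes an osteocalcin, a vitamin K-dependent Gla protein of bone. All 6 WT arrays with a value held repeated values, from -0.08 over -0.02 to 0.22, and the 7 Her2/Neu+/IFNAR1-/- arrays with a value ran from 3.19 over 3.77 to 5.43. The fitted difference was 3.91 ± 0.62 (adjusted p = 0.00309). Because its WT values may not be measured ratios, this is not a measured size. For the same reason the fit without repeated values could not test Bglap2. Bglap2 has near-identical neighbouring copies, so its probe may also read them. Mgp, the matrix Gla protein that holds back calcification, ran from 1.08 over 1.88 to 2.19 in WT and from 2.04 over 3.16 to 4.97 in Her2/Neu+/IFNAR1-/- glands. It rose by 1.48 ± 0.32, or 2.78-fold (adjusted p = 0.0457), and its call was lost in 11 of 18 alternatives and in 12 of the 16 fits without 1 array (adjusted p up to 0.127), all but those without Her2/Neu+/IFNAR1-/- 102, 103, 104 or 106. Gas6, another Gla protein and the ligand of the TAM receptors, differed by 0.75 ± 0.26 (adjusted p = 0.269).

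Lcn2, lipocalin 2, an iron-siderophore-binding protein made by inflamed epithelia, ran from 0.77 over 1.28 to 2.19 in WT and from 1.77 over 3.21 to 4.11 in Her2/Neu+/IFNAR1-/- glands. It rose by 1.67 ± 0.33, or 3.18-fold (adjusted p = 0.0184), and 7 of 9 arrays exceeded all WT arrays. Its call was lost without WT 54, 56 or 59 (adjusted p up to 0.0689), with quantile normalization and when only the compared groups were fitted. The remaining called gene that was higher, BC018473, is a clone name outside the naming rule and was at the limit of the scale on some arrays of both groups.

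**Figure D2:**
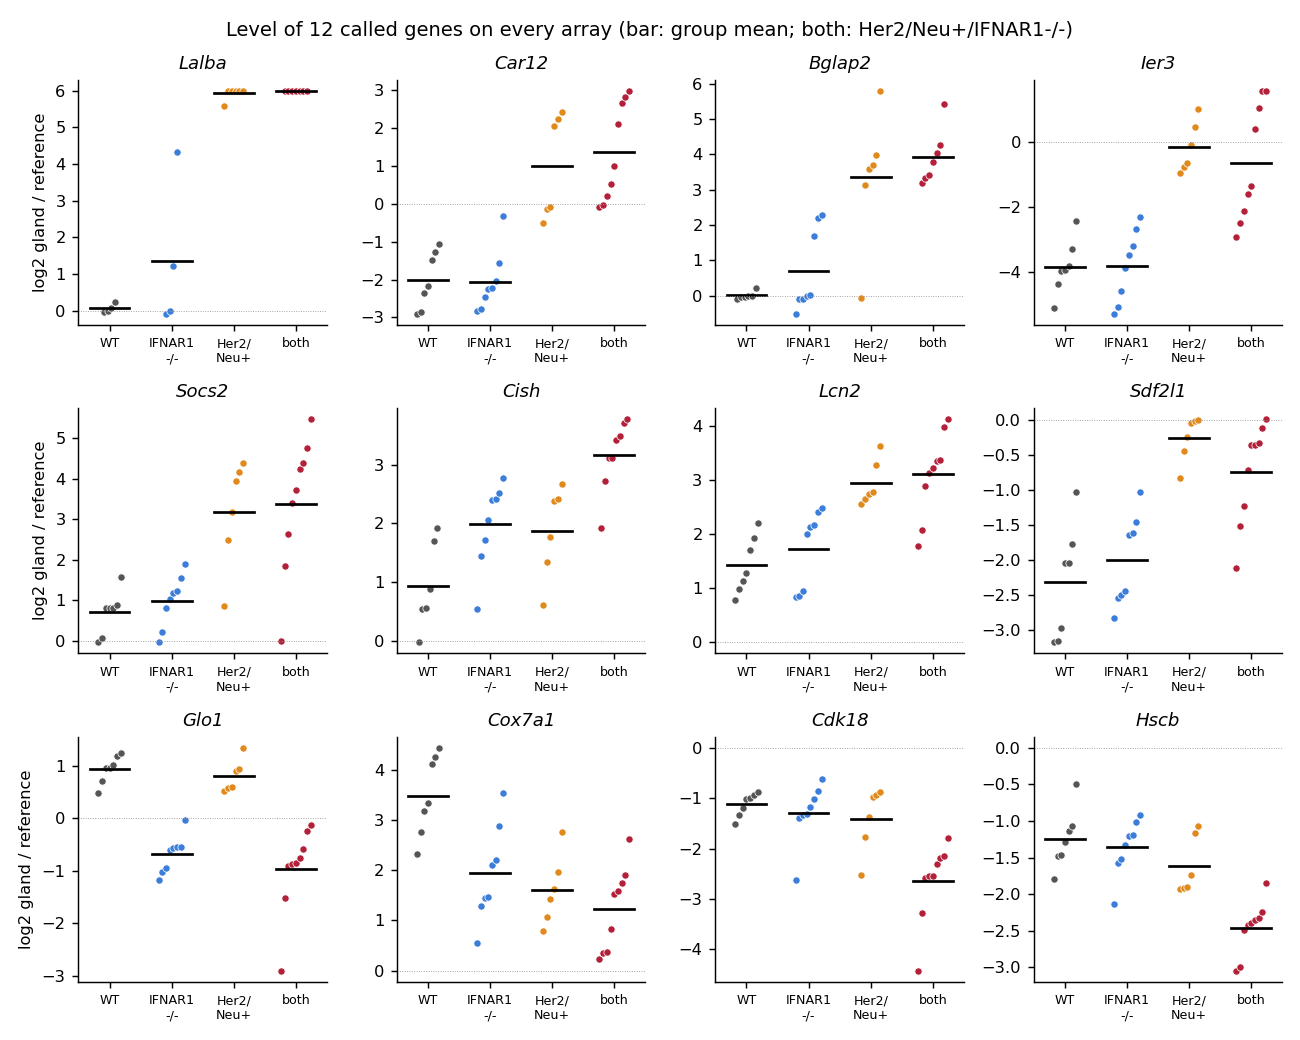
Log2 ratio of gland to reference for 12 called genes on every array with a value, by group, with "both" for Her2/Neu+/IFNAR1-/- glands; the bar is the group mean. Car12 ran from -2.90 to -1.07 in WT and from -0.07 to 2.99 with both changes, and Glo1 was low in both groups without IFNAR1.

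Of the 8 genes that fell, Cox7a1, Hscb, Mrpl34 and Mrps36-ps2 have a mitochondrial role or name. Cox7a1 is the heart and muscle form of a small subunit of cytochrome c oxidase and is also high in brown fat. It ran from 2.31 over 3.35 to 4.44 in WT and from 0.23 over 1.53 to 2.61 in Her2/Neu+/IFNAR1-/- glands, where 8 of 9 arrays were below every WT array. Cox7a1 fell by 2.25 on the log2 scale (SE 0.41, adjusted p = 0.0114). Hscb, a co-chaperone that hands iron-sulphur clusters to mitochondrial proteins, ran from -1.79 over -1.28 to -0.49 in WT and from -3.04 over -2.40 to -1.84 in Her2/Neu+/IFNAR1-/- glands, without overlap. It fell by 1.21 (SE 0.21, adjusted p = 0.00642), with repeated values on 4 of the 9 arrays.

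Mrpl34, a protein of the large mitochondrial ribosomal subunit read by 10 probes, ran from -0.01 over 0.20 to 0.52 in WT and from -1.21 over -0.48 to -0.18 in Her2/Neu+/IFNAR1-/- glands. The groups did not overlap, all 10 probes were lower, by 0.62 to 0.91 in size, and the gene fell by 0.78 (SE 0.17, adjusted p = 0.0457). This call was lost in 14 of the 16 fits without 1 array, all but those without Her2/Neu+/IFNAR1-/- 103 or 106 (adjusted p up to 0.121). It was also lost with repeated values, which 6 of the 9 Her2/Neu+/IFNAR1-/- arrays carried, set to missing and with 1 probe per gene. Mrps36-ps2, annotated as a pseudogene copy of Mrps36, fell by 1.26 (SE 0.24, adjusted p = 0.0141), from a WT median of -0.00 to -1.21; 8 of 9 arrays were below every WT array. Its probe may read Mrps36, whose own 2 probes differed by -1.0 ± 0.27 (adjusted p = 0.141).

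Every one of the 34 measured respiratory chain genes had a lower mean in Her2/Neu+/IFNAR1-/- glands, beside 4639 of 11463 over all genes. The median was -0.72 against 0.08 over all genes, 22 were lower at an unadjusted p under 0.05 (background 4.55%) and 0 higher, yet limma called 0 at an adjusted p under 0.05. Single-change glands were lower too: the list's median was -0.46 in IFNAR1-/- minus WT and -0.83 in Her2/Neu+ minus WT. Over all genes these medians were -0.08 and -0.02, and both contrasts share the WT arrays. Atp5c1 of ATP synthase ran from -0.23 over 0.23 to 0.70 in WT and from -1.44 over -0.90 to 0.16 in Her2/Neu+/IFNAR1-/- glands (-1.07 ± 0.28, adjusted p = 0.114). Ndufa1 of complex I differed by -0.94 ± 0.24 (adjusted p = 0.114), Uqcrc2 of complex III by -0.90 ± 0.24 (adjusted p = 0.139), Sdhb of complex II by -1.16 ± 0.34 and the electron carrier Cycs by -1.28 ± 0.37 (both adjusted p = 0.168). Array means of the list ran from 0.38 to 1.67 in WT and from -0.16 to 1.14 in Her2/Neu+/IFNAR1-/- glands, 7 of 9 below every WT array and 103 the highest. Repeated values were rare here, 0% in WT and 2.29% in Her2/Neu+/IFNAR1-/- glands. The median lay between -0.90 and -0.60 over the settings run, but the count did not hold as well: it was 14 without WT 55, 6 within inferred array set 1, 19 within set 2 and 1 with the inferred slide as a fixed block.

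Fatty acid oxidation genes stood the same way. Of 17 measured, 16 were lower, 7 of them at an unadjusted p under 0.05 (background 4.55%), with a median of -0.88; with quantile normalization the count was 14. Acaa2, the thiolase of the last step, read by 10 probes, ran from 2.30 over 2.81 to 3.81 in WT and from 0.71 over 1.69 to 2.73 in Her2/Neu+/IFNAR1-/- glands (-1.25 ± 0.28, adjusted p = 0.0571). Etfdh, which passes the electrons on to ubiquinone, differed by -1.52 ± 0.36 (adjusted p = 0.0665) and Acadl, a long-chain dehydrogenase, by -1.74 ± 0.46 (adjusted p = 0.129). Fabp3, a fatty acid carrier of oxidative tissues in the brown fat list, separated the groups fully, from -0.29 over 1.46 to 2.86 in WT and from -2.80 over -1.24 to -0.44 in Her2/Neu+/IFNAR1-/- glands (-2.82 ± 0.69, adjusted p = 0.092). It carried repeated values on 8 of the 9 Her2/Neu+/IFNAR1-/- arrays and on 0 of the 7 WT arrays. Repeated values entered 12.1% of the fatty acid oxidation list's gene values in WT and 29.5% in Her2/Neu+/IFNAR1-/- glands. This list's median was -0.72 in IFNAR1-/- minus WT and -1.11 in Her2/Neu+ minus WT, beside -0.88 with both changes.

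Further mitochondrial families, chosen after values had been seen, were less marked. Over all genes, 4639 of 11463 were lower. Of 77 mitochondrial ribosomal protein genes, 58 were lower with a median of -0.30, 14 at an unadjusted p under 0.05 (background 4.55%), and Mrpl34 passed. Of 22 iron-sulphur cluster assembly genes, 16 were lower with a median of -0.33, 6 of them at an unadjusted p under 0.05 (background 4.55%) against 1 higher, and Hscb passed. The 3 genes of this family whose arrays all lay below WT (background 0.105%) were Hscb, the sulphur donor Nfs1 (-0.97 ± 0.28, adjusted p = 0.165) and Ciao3 of the cytosolic machinery (-0.67 ± 0.20, adjusted p = 0.177).

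Other cell types and ribosomal genes are given beside these differences. Of 18 white adipocyte markers 0 passed even at an unadjusted p under 0.05, and the median was -0.00, or -0.24 with quantile normalization. For 7 of the 18 the median stood at the limit of the scale in both groups, which hides differences above it. The array means ran array means from 4.98 to 5.45 in WT and from 4.85 to 5.54 in Her2/Neu+/IFNAR1-/- glands. The 36 cytosolic ribosomal protein genes had a median of -0.03 and 0 at that p. Brown fat markers rest on 5 genes, of which Cidea and Cox8b read 6, the upper limit, on every array of both groups. Skeletal muscle markers, 7 of 20 measured, ran on array means from -0.75 to -0.02 in WT and from -0.11 to 3.61 in Her2/Neu+/IFNAR1-/- glands. On 7 of 9 they exceeded every WT array, and the 4 highest were all in inferred array set 2. Repeated values entered 87.5% of the muscle gene values in WT and 78.0% in Her2/Neu+/IFNAR1-/- glands. The part of muscle in the lower oxidative genes was not tested.

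**Figure D3:**
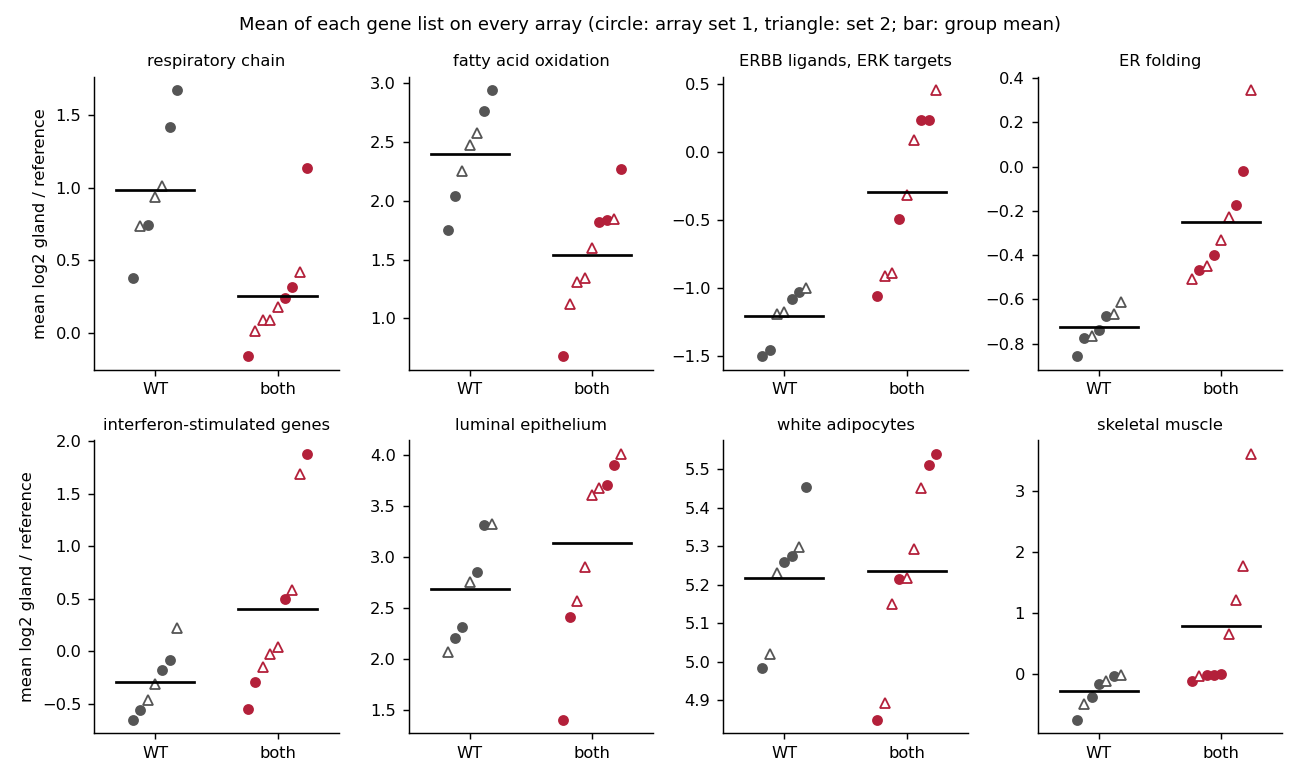
Mean log2 ratio of the measured members of 8 gene lists on every WT and Her2/Neu+/IFNAR1-/- ("both") array, with circles for inferred array set 1, triangles for set 2 and a bar at the group mean. ER folding means do not overlap, respiratory chain means run from 0.38 to 1.67 in WT and from -0.16 to 1.14 with both changes, and white adipocyte means overlap fully.

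Glo1, glyoxalase 1, which removes methylglyoxal made by glycolysis, had the smallest p among the genes that fell. It ran from 0.48 over 0.96 to 1.25 in WT and from -2.90 over -0.85 to -0.12 in Her2/Neu+/IFNAR1-/- glands, without overlap. Glo1 fell by 1.91 (SE 0.27, adjusted p = 0.000588). Its level followed the receptor label: 8 IFNAR1-/- arrays averaged -0.68 (SD 0.36) and 6 Her2/Neu+ arrays 0.82 (SD 0.31). Her2/Neu+/IFNAR1-/- minus Her2/Neu+ was -1.78 (adjusted p = 0.00173), and Her2/Neu+/IFNAR1-/- minus IFNAR1-/- was -0.29 (adjusted p = 0.58). Of 8 genes listed as its neighbours on chromosome 17, Dnah8, Zfand3 and Btbd9 were measured and differed by -1.45, -0.62 and -0.03. None passed, and repeated values entered 92.6% of their gene values in Her2/Neu+/IFNAR1-/- glands.

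Cdk18, a kinase of the cyclin-dependent family, ran from -1.52 over -1.02 to -0.87 in WT and from -4.42 over -2.54 to -1.78 in Her2/Neu+/IFNAR1-/- glands, without overlap, and fell by 1.52 (SE 0.31, adjusted p = 0.0317). The call was lost without WT 53, 54, 56, 57 or 59 or Her2/Neu+/IFNAR1-/- 110 (adjusted p up to 0.0757) and when only the compared groups were fitted. Bpnt1, a phosphatase of the sulphate pathway, fell by 1.76 (SE 0.34, adjusted p = 0.0151), from a WT median of 2.01 to -0.01. Its values in Her2/Neu+/IFNAR1-/- glands ran from -0.12 to 1.11, with at least 1 probe value repeated on all 9 arrays. Its 2 probes differed in size, -0.85 and -3.16. Its call was lost without WT 56 or 57 (adjusted p up to 0.0619) and with 1 probe per gene. Gm9797, a predicted gene outside the naming rule, fell by 1.49.

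Interferon-stimulated genes were compared because these mice lack the receptor chain that normally drives them. None of the 35 measured passed, and 9 were higher at an unadjusted p under 0.05 (background 6.56%) against 1 lower, with a median of 0.58. Oasl2, an oligoadenylate synthetase-like antiviral protein, ran from -2.83 over -1.54 to -0.87 in WT and from -1.06 over 0.18 to 3.05 in Her2/Neu+/IFNAR1-/- glands (2.27 ± 0.55, adjusted p = 0.0792). Oas1a differed by 2.09 ± 0.59 (adjusted p = 0.165), Apol9a by 1.99 ± 0.52 (adjusted p = 0.127) and Irf7, the factor that amplifies interferon production, by 2.30 ± 0.74 (adjusted p = 0.223). Ifi27 was the lower one, at -0.82 ± 0.38. Array means of the list spread more in Her2/Neu+/IFNAR1-/- glands, from -0.55 to 1.88, than in WT, from -0.65 to 0.22. Arrays 110 and 105 were the highest, and 4 of 9 lay above every WT array. The same list's median was -0.53 in IFNAR1-/- minus WT and 1.24 in Her2/Neu+ minus WT, which share the WT arrays. The median for Her2/Neu+/IFNAR1-/- minus WT was 0.38 without Her2/Neu+/IFNAR1-/- 105, 0.39 without 110 and 0.08 with the inferred slide as a fixed block.

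Among the receptors of interferons and their Janus kinases, 8 genes measured, the smallest p was that of Ifngr2, a chain of the interferon-gamma receptor that lies near Ifnar1 on chromosome 16. It ran from -1.60 over -0.80 to -0.14 in WT and from -0.38 over 0.35 to 1.07 in Her2/Neu+/IFNAR1-/- glands (1.17 ± 0.26, adjusted p = 0.0561). Ifngr2 was also above WT in IFNAR1-/- and in Her2/Neu+ glands, with means of 0.16 and 0.20 against -0.79. The other 9 measured neighbours of Ifnar1 did not pass, and the median of the 10 was 0.18.

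Immune and death genes gave few firm differences. The background for these lists is 6.56% of all genes higher and 4.55% lower at an unadjusted p under 0.05. Of 20 chemokines 5 were higher and 1 lower at that p, led by Ccl7, a monocyte attractant (1.72 ± 0.53, adjusted p = 0.2); 3 were higher without WT 53 or without WT 57, and the count of lower ones was 0 without Her2/Neu+/IFNAR1-/- 110 and 2 without 104. Of 16 caspases and cell death genes 5 were higher and 1 lower; Fas, the death receptor, was the lower one, from 1.03 over 1.94 to 3.79 in WT and from -0.35 over -0.01 to 1.85 in Her2/Neu+/IFNAR1-/- glands (-1.70 ± 0.38, adjusted p = 0.0571), and Casp1, the inflammasome protease, differed by 1.57 ± 0.46 (adjusted p = 0.176). Fas carried repeated values on 5 of the 9 Her2/Neu+/IFNAR1-/- arrays and on 0 of the 7 WT arrays, so its fall may not be fully measured. In the caspase and cell death list they entered 20.9% of gene values in WT and 42.7% in Her2/Neu+/IFNAR1-/- glands. Of 14 class I antigen presentation genes 3 were higher, led by the peptide transporter Tap2 (0.50 ± 0.20, adjusted p = 0.33), and 1 without WT 59. T and NK cell markers had a median of -0.07 and B cell markers of -0.20, with 0 of 14 and 0 of 7 at an unadjusted p under 0.05. T and NK marker array means ranged from 0.29 to 2.64 in WT and from -0.02 to 3.03 in Her2/Neu+/IFNAR1-/- glands, a wide spread in both groups.

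The glands expressed the markers of their labelled tissue. Luminal epithelial marker means ran from 2.07 to 3.32 in WT and from 1.41 to 4.01 in Her2/Neu+/IFNAR1-/- glands, 5 of 9 above every WT array and 103 the lowest, with a median difference of 0.40 over 13 markers. That median was 0.15 without WT 53, 0.26 without WT 54, 0.14 within inferred array set 1, 0.41 within set 2 and -0.31 with the inferred slide as a fixed block. Basal and myoepithelial markers had a median of -0.13 over 10 genes and extracellular matrix genes of -0.14 over 28. Cell cycle genes, 27 measured, had a median of 0.19 and 5 higher at an unadjusted p under 0.05 (background 6.56%), among them Top2a, the topoisomerase of dividing cells (1.58 ± 0.58, adjusted p = 0.304). The count was 2 without WT 60 or Her2/Neu+/IFNAR1-/- 105, 108 or 109 and 3 without WT 53, WT 56 or Her2/Neu+/IFNAR1-/- 103, and the median was 0.03 without WT 55 and 0.05 without Her2/Neu+/IFNAR1-/- 105. Their median was 0.65 within array set 1 and -0.02 within set 2. The part of the epithelial share in the milk, secretory and ERK genes that were higher was not tested.

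**Figure D4:**
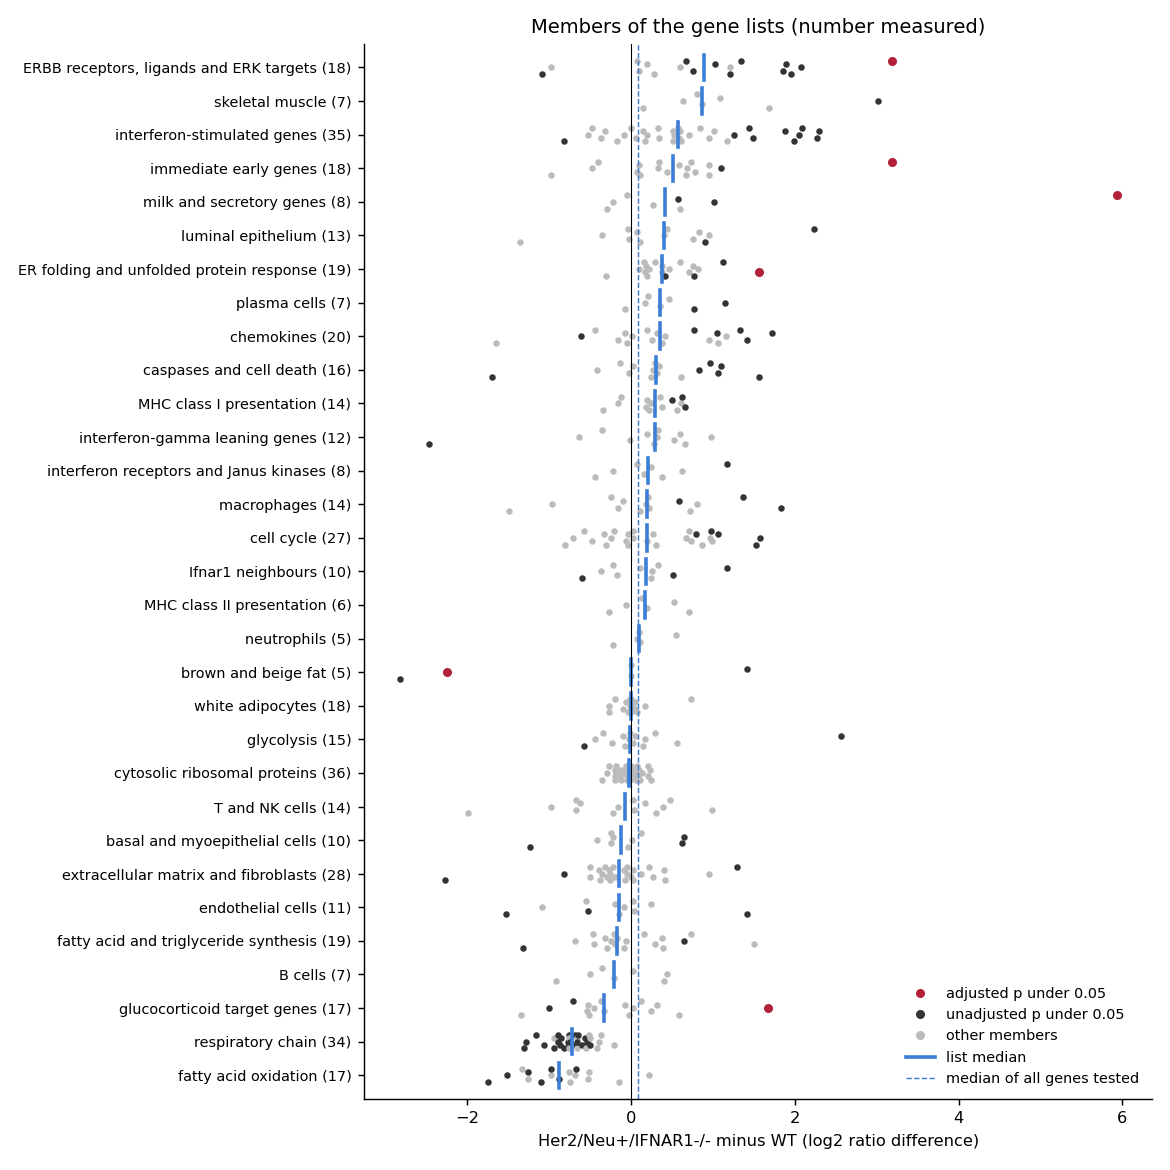
Difference between Her2/Neu+/IFNAR1-/- and WT glands (log2 ratio) for each measured member of the gene lists with at least 5 measured genes, with red for adjusted p under 0.05, black for unadjusted p under 0.05, blue bars for list medians and a dashed line for the median of all genes, 0.08. Respiratory chain and fatty acid oxidation members lie to the left, with medians of -0.72 and -0.88, and ERBB and ERK members to the right, with a median of 0.89.

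The groups with a single change are set beside the called genes as group means, since these contrasts share arrays. Lalba, Bglap2, Car12, Ier3, Epha2, Socs2, Lcn2 and Sdf2l1 had high means in both groups with the oncogene: Car12 averaged -2.01 in WT, -2.06 in IFNAR1-/-, 1.00 in Her2/Neu+ and 1.36 in Her2/Neu+/IFNAR1-/- glands, and Ier3 averaged -3.85, -3.81, -0.18 and -0.66 in that order. Her2/Neu+/IFNAR1-/- minus IFNAR1-/- passed for 7 of these 8, all but Epha2 (adjusted p = 0.0532), and Her2/Neu+/IFNAR1-/- minus Her2/Neu+ passed for 0 of them, with differences from -0.58 to 0.57; for Lalba, at or near the limit of the scale in both groups, that contrast could not pass. Her2/Neu+ minus WT passed for 6 of them, not for Socs2 (adjusted p = 0.107) or Lcn2 (0.0855). Mgp averaged 1.82, 2.35, 3.09 and 3.30 in the same order.

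Glo1, as given above, was low in both groups without the receptor chain. Cox7a1, Bpnt1 and Lman1 had means on the same side of WT in all 3 other groups, with Cox7a1 at 3.48 in WT, 1.93 in IFNAR1-/-, 1.60 in Her2/Neu+ and 1.24 in Her2/Neu+/IFNAR1-/- glands, where neither single change passed against WT (adjusted p = 0.453 and 0.0868). Hscb, Cdk18, Mrpl34 and Mrps36-ps2 were lowest with both changes: Hscb averaged -1.25 in WT, -1.36 in IFNAR1-/-, -1.62 in Her2/Neu+ and -2.46 in Her2/Neu+/IFNAR1-/- glands. Her2/Neu+/IFNAR1-/- minus IFNAR1-/- passed for Hscb (adjusted p = 0.00725), Cdk18 (0.0267) and Mrps36-ps2 (0.0112) but not Mrpl34 (0.066), whereas minus Her2/Neu+ did not pass for these (0.169, 0.169, 0.391 and 0.207). Cish was highest with both changes, 3.16 against 0.93 in WT, 1.99 in IFNAR1-/- and 1.87 in Her2/Neu+ glands, but its step from either single change did not pass (adjusted p = 0.0823 and 0.207). The test of whether the changes combine other than by addition, the interaction, passed for none of the named genes; it was -0.72 for Hscb (adjusted p = 0.5) and 0.24 for Cish (0.888).

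The array sets gave the same direction for the called genes named here. Set 1 holds 4 WT and 4 Her2/Neu+/IFNAR1-/- arrays and set 2 holds 3 and 5. Sets and slides were inferred from block numbers and sample order and are not stated in the labels. Only the inferred slide of WT 53, 54 and 57 and Her2/Neu+/IFNAR1-/- 102 holds both groups. On the other arrays, all of set 1 among them, group and inferred slide cannot be told apart. Cish differed by 2.27 in set 1 and 2.35 in set 2, Ier3 by 3.23 in each, and Hscb by -1.23 and -1.18. Glo1 differed by -2.41 and -1.52. In set 1 alone limma called 4 genes, and in set 2 alone 1, Lalba. Each set holds fewer arrays, and the cause of these lower counts was not tested. With the inferred slide as a random block 7 of the 20 were called: Lalba, Bglap2, Car12, Cish, Cox7a1, Glo1 and Hscb. As a fixed block, which rests on 4 arrays, Ier3 differed by 1.53, Cish by 1.20 and Bpnt1 by -0.30, and of the 7 genes called there 1, Lalba, was among the 20.

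**Figure D5:**
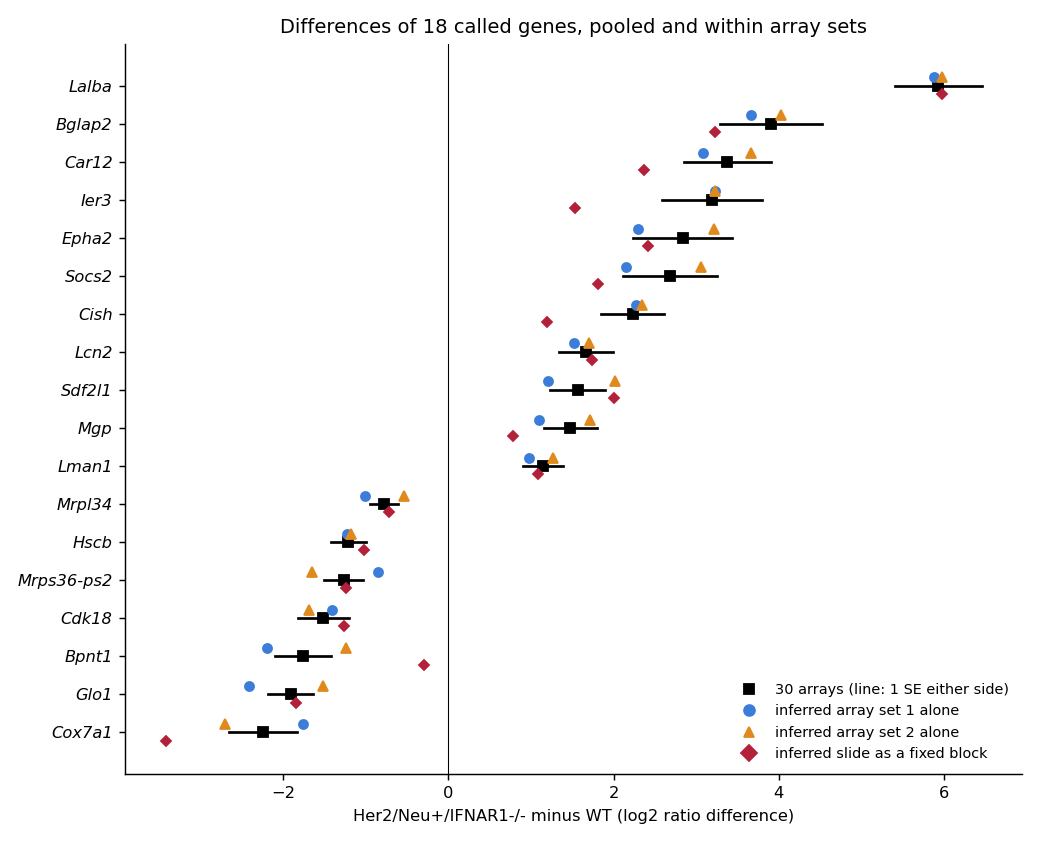
Difference between Her2/Neu+/IFNAR1-/- and WT glands (log2 ratio) for 18 called genes from all 30 arrays (black, line 1 SE to either side), from inferred array set 1 alone (blue), set 2 alone (orange) and with the inferred slide as a fixed block (red). Every point lies on the same side of 0 as the pooled difference, and Bpnt1 comes nearest to 0 at -0.30.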

How the data were processed

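RNA from 30 inguinal gland samples was compared with a common reference on 2-colour arrays. The deposited values are log2 ratios of gland (Cy5) to reference (Cy3), as per the labels' dyes; the base was inferred from values stopping at 6 and -6. The authors' scanning, normalization and the origin of repeated values are not given in the sources used here, and neither is a depth; the number of arrays limits the precision.

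Of 20896 probes, 17376 carried 1 gene symbol and 3520 none. Probes measured on 50% or more of each group's arrays were kept and averaged per symbol into 11463 genes, of which 2606 had several probes. limma 3.58.1 in R 4.3.3 fitted 4 group means over all 30 arrays with empirical Bayes moderation; p-values are two-sided and Benjamini-Hochberg adjusted over all genes. The labels number separate samples without naming animals, so the spread behind each p-value is that between these samples and may be technical. In simulated data for this comparison, over 11463 genes, 22% of 100 genes changed by a log2 value of 1 and 82% of 100 changed by 2 were called, with 9 false among 113 calls. The simulated noise was independent, without slides, a limit of the scale or repeated values. These rates therefore need not hold for the deposited data.

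Members and gene lists (33 lists, 646 genes) were chosen with earlier results of these data known. Named genes are up to 12 called genes in each direction with an official symbol, up to 4 called members per list and, where a list has none, its member of smallest p, plus Ifnar1, Ifnar2 and Erbb2. Families beyond the lists, and further examples within lists, were chosen after their values were seen. Alternatives covered scaling, filters, probe averaging, the arrays fitted, array weights, block number, inferred slide and set, repeated values, thresholds and each array left out.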

Additional observations from a re-analysis of the deposited data

Results flagged for a closer look

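Chance alone marks about 1 in 20 groups tested for a single distant array, and 42 groups were tested. Bglap2 stood at 0.22 in WT 60, with the nearest of the 6 WT values at -0.00. Mgp stood at 1.08 in WT 59, below the next WT value of 1.86 (n = 7). Glo1 stood at -2.90 in Her2/Neu+/IFNAR1-/- 109, below the next value of -1.51 (n = 9). Bpnt1 stood at -0.039 in WT 54, where the nearest WT value was 1.85 (n = 7), and at 1.11 in Her2/Neu+/IFNAR1-/- 102, where the nearest was -0.00 (n = 9). At least 1 Bpnt1 probe value was repeated on 4 WT and all 9 Her2/Neu+/IFNAR1-/- arrays. All 6 WT values of Bglap2 were repeated values. Distances between such values may not be measured ones.

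Among probes without a gene name, which the comparison by gene does not use, probe 2134 was higher by 4.98 in Her2/Neu+/IFNAR1-/- than in WT glands (limma, adjusted p = 0.016); its 4 WT values were all repeated values. A second unnamed probe, 33828, was lower by 3.16 on the log2 scale (limma, adjusted p = 0.00304), with means of 4.14 in WT and 0.97 in Her2/Neu+/IFNAR1-/- glands, where 4 of 7 values were repeated.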

How the results depend on the processing

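Of the 20 genes called (12 higher, 8 lower), none of those named reversed direction under the alternatives run. The count became 32 (19 lower) with quantile normalization, 168 (87 higher, 81 lower) with array weights, and 47 (31 higher, 16 lower) with repeated values set to missing; block number as a covariate gave 15 lower. It became 7 (4 higher, 3 lower) with the inferred slide as a random block, 7 (6 higher, 1 lower) with it as a fixed block, 4 (3 higher, 1 lower) in array set 1, 1 (1 higher, 0 lower) in set 2, and 6 (4 higher, 2 lower) at an adjusted p under 0.01. Without 1 array it ran from 9 to 40, with 5 to 21 higher and 4 to 22 lower. Sets and single slides hold fewer arrays, and the cause of the shifts was not tested. Lalba was called in every setting that could test it. No paired analysis was possible because the groups share no sample numbers. Values at the limit of the scale and repeated values limit what can be sized.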
